A study of Mus musculus with 8 samples.

Results

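Microglia are the resident macrophages of the retina. Complement is a cascade of secreted proteins in which C1q recognises a surface, the C4 and C3 proteins are then cleaved and attached to it, and receptors on microglia bind what has been tagged. In the visual system the cascade is best known for the removal of synapses by microglia, and purinergic receptors let microglia sense nucleotides released by other cells. The 10 genes described here were chosen by name from the 18058 genes of the deposited table. They are C1qa, C1qb, C1qc, C3 and C4b of the complement cascade and Cx3cr1, Aif1, P2ry12, Csf1r and P2rx7 of microglia, and each had 1 row.

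The libraries were made from total RNA of dissected adult retinae, 4 from wild-type (WT) mice and 4 from mice with a quadruple knockout (KO) of the extracellular matrix genes tenascin-R (Tnr), tenascin-C (Tnc), neurocan (Ncan) and brevican (Bcan). The series text counts 4 mice per genotype, and per the study's methods retinae were pooled before extraction, without saying whether this was across mice. Each library is named by its genotype and a letter A to D. The quadruple KO line was bred from single KO lines, WT mice were of the inbred strain 129S2/SvPasCrl, and which of the mice were male or female is not given in the sources used here. In a whole retina microglia are a small minority, so that fewer cells of a type and less RNA per cell cannot be told apart in any value below.

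Values are normalized counts, that is estimated read counts that the authors scaled for library size. Depths, estimated from the steps between low values, were 23.9 M to 40.3 M reads for WT and 38.6 M to 52.1 M for the quadruple KO. The lowest of all were those of WT B (23.9 M) and WT C (27.4 M). WT B and WT C stood apart from the other 6 libraries on the first principal component, which held 50.9% of the variance. Mitochondrially encoded mRNAs took 0.402% and 0.341% of their normalized counts, against 1.28% to 1.64% in the others, and signal recognition particle RNA took 19.3% and 14.8%, against 6.82% to 8.69%. Of the targeted genes, Bcan, Ncan and Tnr were lower in each KO library than in each WT library, whereas Tnc overlapped (881 to 1592 in WT, 1024 to 1249 in the quadruple KO). A gene total counts every transcript of a locus, an altered one included, and protein was not measured in these libraries. Where WT B and WT C set the size or the sign of a named gene's difference, its log2 fold change without them is given too.

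The members share little sequence, with 1 exception. C4b and its neighbour C4a, a gene for a sex-limited C4 protein, have coding sequences that are identical at 5003 of 5214 aligned positions (96.0%), and 48.4% of the 31-base words of the canonical C4b transcript also occur in C4a. The 60-base window of the coding sequences with the most differences is shown, since only positions that differ tell reads of the genes apart. It starts at base 2705 of the C4b coding sequence, lies on the minus strand of GRCm39 at chr17:34954404-34954463 for C4b and chr17:35035062-35035121 for C4a, and the 13 positions that differ are in capitals.
C4b: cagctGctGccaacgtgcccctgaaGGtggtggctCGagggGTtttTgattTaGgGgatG
C4a: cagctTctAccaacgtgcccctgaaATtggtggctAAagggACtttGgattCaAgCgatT
For Aif1 the share of such words was 11.1%, most often with St13, and for the other 8 members it was at most 2.12%. Values of C4b are therefore uncertain as to which of the neighbours a read came from.

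From the RefSeq promoter table (build GRCm38.p6, from 250 bases before to 50 bases after each start) 8 starts of 7 members were taken. Each of the 8 matched GRCm39 at exactly 1 place. C1qa and C4b had no entry and Csf1r was left out, so these starts do not cover all members. The letters AGGAAGT, which contain the core that PU.1 and other factors of the ETS family bind, were searched on both strands. They were chosen after matches of several strings of letters had been seen. They occurred at 4 of the 8 starts, in C1qb, C1qc, P2ry12 and the downstream start of P2rx7, and at 3072 of all 32851 starts in the table (9.35%). A match describes these letters and is no evidence of a bound factor. The promoters of the members that are set side by side below are printed in the direction of the gene, with a match to AGGAAGT or its reverse complement in capitals. The first pair comes from neighbouring genes that encode chains of the same protein, C1qb at chr4:136613462-136613761 and C1qc at chr4:136620176-136620475 (both on the minus strand).
C1qb: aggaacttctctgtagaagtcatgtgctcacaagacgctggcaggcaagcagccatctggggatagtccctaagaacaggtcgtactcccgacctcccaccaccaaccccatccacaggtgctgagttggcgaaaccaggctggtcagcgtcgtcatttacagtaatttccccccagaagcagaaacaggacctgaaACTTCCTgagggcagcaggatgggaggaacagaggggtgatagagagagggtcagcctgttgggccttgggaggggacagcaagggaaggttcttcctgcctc
C1qc: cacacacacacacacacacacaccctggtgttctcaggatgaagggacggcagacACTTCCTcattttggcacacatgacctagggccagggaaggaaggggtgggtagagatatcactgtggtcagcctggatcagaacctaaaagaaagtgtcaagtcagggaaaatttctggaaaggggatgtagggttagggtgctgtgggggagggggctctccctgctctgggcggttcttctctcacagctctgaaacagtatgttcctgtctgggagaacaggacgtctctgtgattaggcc
The next 4 belong to receptors whose values separated the genotypes or the WT libraries. They are P2rx7 at its upstream start (chr5:122781740-122782039, plus strand) and its downstream start (chr5:122788196-122788495, plus strand), Cx3cr1 (chr9:119897313-119897612, minus strand) and P2ry12 (chr3:59170357-59170656, minus strand). Csf1r, another such receptor, was not among the starts taken. Cx3cr1 and the upstream P2rx7 start hold no match in these 300 bases.
P2rx7 upstream: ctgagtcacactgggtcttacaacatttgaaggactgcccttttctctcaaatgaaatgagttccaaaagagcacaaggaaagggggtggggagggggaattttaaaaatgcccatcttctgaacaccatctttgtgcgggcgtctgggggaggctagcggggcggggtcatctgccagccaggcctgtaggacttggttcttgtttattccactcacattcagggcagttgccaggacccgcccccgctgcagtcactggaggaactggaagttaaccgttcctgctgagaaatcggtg
P2rx7 downstream: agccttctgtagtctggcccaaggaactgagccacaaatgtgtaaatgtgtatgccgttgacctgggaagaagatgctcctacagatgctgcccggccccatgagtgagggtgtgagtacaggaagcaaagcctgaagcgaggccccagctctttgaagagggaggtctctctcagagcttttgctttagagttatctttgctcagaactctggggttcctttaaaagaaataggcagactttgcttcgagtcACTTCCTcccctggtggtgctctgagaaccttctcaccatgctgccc
Cx3cr1: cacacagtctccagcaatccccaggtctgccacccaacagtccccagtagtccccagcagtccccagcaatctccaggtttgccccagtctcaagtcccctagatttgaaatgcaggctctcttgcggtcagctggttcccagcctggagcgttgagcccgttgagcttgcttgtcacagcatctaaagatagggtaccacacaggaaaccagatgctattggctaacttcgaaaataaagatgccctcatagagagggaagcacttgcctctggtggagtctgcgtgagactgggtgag
P2ry12: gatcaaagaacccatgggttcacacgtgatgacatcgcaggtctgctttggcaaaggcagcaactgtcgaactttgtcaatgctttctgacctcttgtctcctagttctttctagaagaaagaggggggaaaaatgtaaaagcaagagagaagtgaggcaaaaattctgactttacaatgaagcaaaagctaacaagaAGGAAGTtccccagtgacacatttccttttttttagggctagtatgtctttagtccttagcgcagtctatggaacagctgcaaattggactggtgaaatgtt

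Genotypes were compared with limma on log2(normalized count + 1) in the 17636 genes whose mean was 10 or more, and p-values were adjusted over all of them by the Benjamini-Hochberg method. On this scale a change in a gene with few counts appears smaller than it is. Of the 10 members, 9 passed this minimum, and Aif1, with a mean of 9.77, did not. None of the 9 was called at an adjusted p under 0.05, where 77 genes in all were called (0.437% of those tested). At an unadjusted p under 0.05, 2 of the 9 passed, P2rx7 and Cx3cr1, beside 16.6% of all tested genes. The same genes were the 2 of the 10 members whose 4 KO values did not overlap the 4 WT values, which held for 9.74% of all tested genes. Beside these background shares, the counts are not a result about the members as a group.

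**Figure D1:**
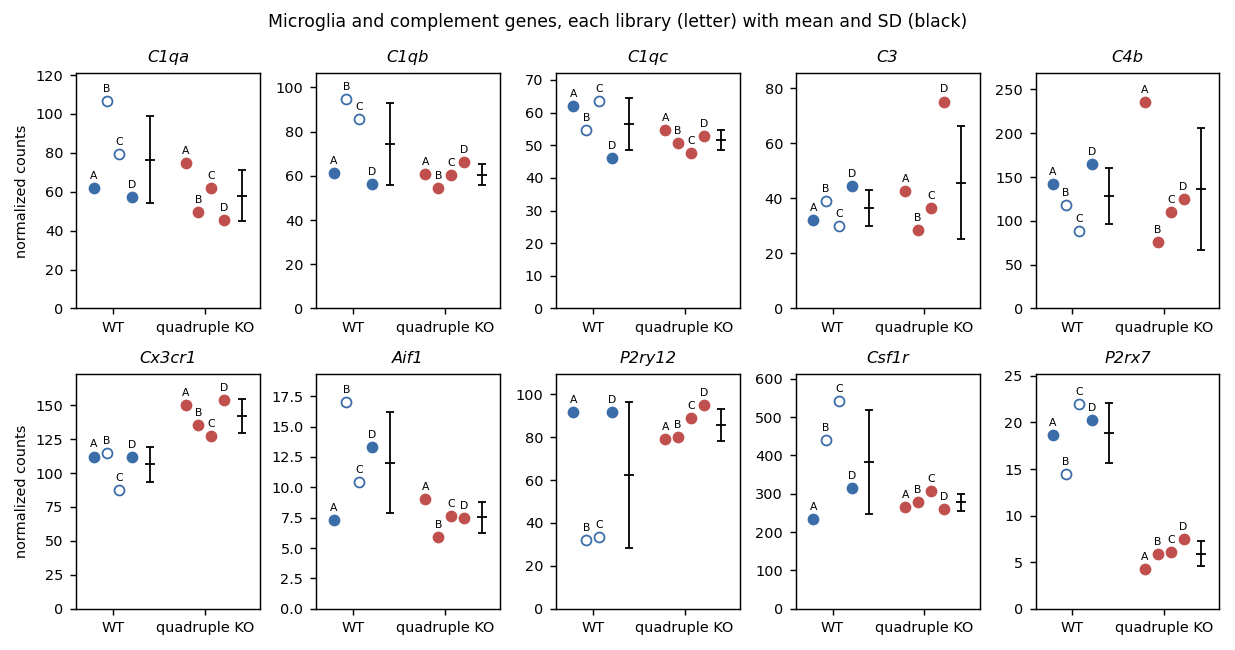
Normalized counts (y axis, from 0, with its own scale in each panel) of the 10 genes in the 4 WT libraries (blue) and the 4 quadruple KO libraries (red), with the letter of each library, open circles for WT B and WT C, and the mean and SD in black. The genotypes separate in P2rx7 and Cx3cr1, and WT B and WT C lie near 33 for P2ry12, where the other 6 libraries lie between 79.1 and 94.9.

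C1q is assembled from the products of C1qa, C1qb and C1qc, which lie next to each other on the minus strand of chromosome 4 (GRCm39, C1qb 136606009 to 136613511, C1qc 136616466 to 136620376, C1qa 136623223 to 136626161). C1qa had 62.1, 107, 79.6 and 57.3 normalized counts in WT A to WT D, and 74.6, 49.4, 62.0 and 45.6 in KO A to KO D. WT B and WT C lay above each of the KO libraries, and WT A and WT D lay among them. The means were 76.4 ± 22.4 for WT and 57.9 ± 13.1 for the quadruple KO (SD over 4 libraries each), for a log2 fold change of -0.38 (SE 0.24, limma adjusted p = 0.368). C1qb had 61.1, 94.7, 85.6 and 56.3 in WT A to WT D, and 60.8, 54.5, 60.5 and 66.0 in KO A to KO D. The order was like that of C1qa, with WT B and WT C above all others. Its log2 fold change was -0.26 (SE 0.19, limma adjusted p = 0.424). C1qc had 62.1, 54.5, 63.6 and 46.2 in WT A to WT D, and 54.8, 50.8, 47.7 and 53.0 in KO A to KO D. Here WT B lay between the KO libraries, and the lowest value of all was in WT D. The log2 fold change of C1qc was -0.12 (SE 0.16, limma adjusted p = 0.644).

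The summed counts of the C1q genes were 185, 256, 229 and 160 in WT A to WT D, and 190, 155, 170 and 165 in KO A to KO D. The means were 207 ± 43.1 and 170 ± 15.0 (SD over 4 libraries each), and an exact two-sided permutation test gave p = 0.2. With WT B and WT C left out, the log2 fold changes were -0.07 for C1qa, 0.04 for C1qb and -0.06 for C1qc, so that the sign of C1qb turned. The 95% confidence intervals with all 8 libraries ran from 0.530-fold to 1.12-fold of WT for C1qa, from 0.615-fold to 1.13-fold for C1qb and from 0.718-fold to 1.17-fold for C1qc. The values leave room for a change of any size within these intervals.

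C4b encodes the complement component that C1 cleaves, and C3 encodes the protein on which the pathways of complement converge. Both lie on the minus strand of chromosome 17 (GRCm39, C4b 34947354 to 34962912, C3 57510964 to 57535155). C3 had 32.3, 39.02, 30.01 and 44.7 normalized counts in WT A to WT D, and 42.6, 28.5, 36.5 and 75.2 in KO A to KO D. KO D was the highest library, and the other KO libraries lay among or just below WT. The log2 fold change was 0.24 (SE 0.29, limma adjusted p = 0.629), without KO D it was -0.03, and without WT B and WT C it was 0.17. C4b had 142, 118, 88.8 and 165 in WT A to WT D, and 236, 75.5, 110 and 124 in KO A to KO D. The quadruple KO held both the highest and the lowest value, in KO A and KO B. The means were 128 ± 32.5 for WT and 136 ± 69.3 for the quadruple KO (SD over 4 libraries each), for a log2 fold change of -0.00080 (SE 0.33, limma adjusted p = 0.999). Its sign differed between alternatives, from -0.30 to 0.24 (-0.29 without WT B and WT C), and no direction is given. The confidence interval, 0.599-fold to 1.67-fold of WT, left wide room for a change either way.

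C4a had 38.5, 81.5, 91.7 and 24.7 normalized counts in WT A to WT D, and 55.3, 53.4, 39.2 and 94.1 in KO A to KO D. Within WT, C4a was high where C4b was low. The sum of C4b and C4a was 181, 200, 181 and 189 in the WT libraries (188 ± 9.12, SD, n = 4), so that the sum varied less than either gene. In KO A to KO D the sum was 291, 129, 149 and 219 (197 ± 73.5), and an exact two-sided permutation test between the genotypes gave p = 0.914. C4b took between 49.2% (WT C) and 86.9% (WT D) of the sum. How reads were divided between the near-identical genes was not tested.

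**Figure D2:**
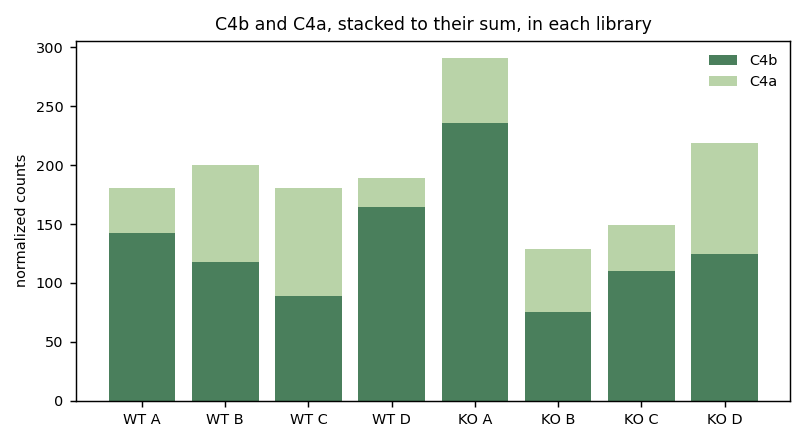
Normalized counts (y axis) of C4b (dark) and C4a (light), stacked to their sum, in each of the 8 libraries (x axis). The sum lies between 181 and 200 in WT and between 129 and 291 in the quadruple KO, while the share of C4b changes from library to library.

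P2rx7 encodes P2X7, an ATP-gated ion channel of microglia and macrophages that also has been described in retinal neurons. It lies on the plus strand of chromosome 5 (GRCm39, 122781942 to 122830400). It had 18.7, 14.5, 22.0 and 20.2 normalized counts in WT A to WT D, and 4.23, 5.89, 6.12 and 7.44 in KO A to KO D. The lowest WT library, WT B, lay well above the highest KO library, KO D. The quadruple KO held 31.4% of the WT mean (18.8 ± 3.22 against 5.92 ± 1.318, SD over 4 libraries each). The log2 fold change was -1.53 (SE 0.28), with a 95% confidence interval from 0.225-fold to 0.536-fold of WT, and the difference was not called (limma adjusted p = 0.0752). The exact two-sided permutation test on the same values gave p = 0.0286, the lowest p that this number of libraries can give. The call depended on the variance model, with an adjusted p of 0.00889 in limma without a trend and of 0.016 with library weights. Among the alternatives the adjusted p ranged from 0.00889 to 0.339, and the log2 fold change stayed negative, between -1.78 and -0.85. With WT B and WT C left out the log2 fold change was -1.58 (limma adjusted p = 0.109). The counts are low, with an estimated 4.91 to 22.3 reads per library. The study named P2rx7 from these same libraries, so its direction here is no independent evidence.

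Most of the tested genes around P2rx7 had smaller differences than P2rx7 itself. Of the 50 other tested genes that start within 1 Mb of the P2rx7 start, none was called by limma at an adjusted p under 0.05. P2rx7 was not called either, and 0.437% of all tested genes were. Of the 50, 4 had an unadjusted p under 0.05, beside 16.6% of all tested genes. The median log2 fold change of the 50 was -0.06. P2rx4, the gene of a related ATP-gated channel and the next tested gene downstream, had a log2 fold change of -0.27 (limma adjusted p = 0.308), or -0.14 without WT B and WT C. The largest fall in the window was that of the pseudogene Rpl35a-ps6 (log2 fold change -3.83, limma adjusted p = 0.307). No gene of chromosome 5 was among the 77 genes called. On chromosome 17, which holds C3, C4b and Aif1, 11 genes were called, the nearest of them 3.78 Mb from C4b, and on chromosome 18, which holds Csf1r, 12 were called, the nearest 4.93 Mb away. The nearest called gene lay 8.11 Mb from P2ry12, 9.82 Mb from Cx3cr1 and over 29 Mb from the C1q genes.

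**Figure D3:**
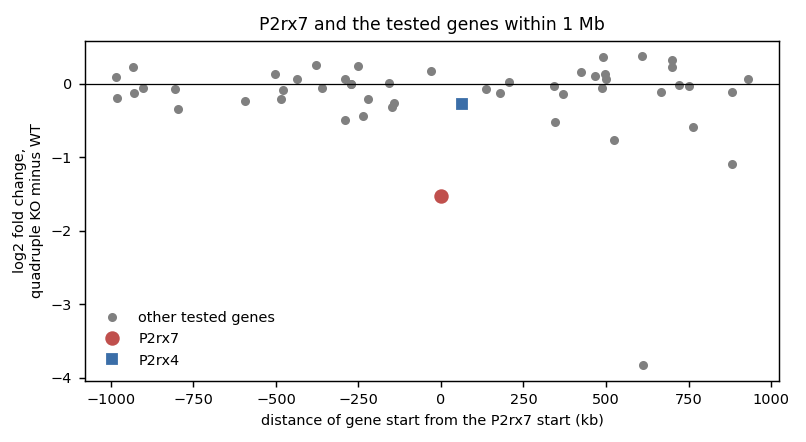
Log2 fold change, quadruple KO minus WT (y axis), of P2rx7 (red), P2rx4 (blue square) and the other tested genes within 1 Mb, by the distance of their start from the P2rx7 start in kb (x axis). P2rx7 lies at -1.53 while the median of its 50 neighbours is -0.06.

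Cx3cr1 encodes the receptor for fractalkine, a ligand made by neurons, and marks microglia in the healthy retina. It lies on the minus strand of chromosome 9 (GRCm39, 119877749 to 119898945). It had 112, 115, 87.3 and 112 normalized counts in WT A to WT D, and 150, 135, 127 and 154 in KO A to KO D. All KO libraries lay above all WT libraries, and WT C was the lowest. The means were 107 ± 12.9 for WT and 142 ± 12.4 for the quadruple KO (SD over 4 libraries each), which is 1.33-fold. The log2 fold change was 0.41 (SE 0.13), the 95% confidence interval 1.08-fold to 1.64-fold, and the difference was not called (limma adjusted p = 0.301). The exact two-sided permutation test gave p = 0.0286. In every alternative the log2 fold change of Cx3cr1 was positive, between 0.32 and 0.46, and the adjusted p lay between 0.0905 and 0.584. With WT B and WT C left out it was 0.33. Its ligand Cx3cl1 had 2547 to 3310 normalized counts in WT and 2518 to 2680 in the quadruple KO (log2 fold change -0.15, limma adjusted p = 0.358). That of Cx3cl1 was -0.0088 without WT B and WT C.

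P2ry12 encodes the ADP receptor P2Y12, through which resting microglia direct their processes. Its gene on chromosome 3 (GRCm39, 59123682 to 59170429, minus strand) lies within Med12l, which is read from the opposite strand. It had 91.9, 32.1, 33.5 and 91.6 normalized counts in WT A to WT D, and 79.1, 79.9, 89.1 and 94.9 in KO A to KO D. WT B and WT C formed a low pair, and WT A and WT D lay at the upper end of the KO range. The mean of WT A and WT D was 2.80-fold that of WT B and WT C. The log2 fold change with all libraries was 0.63 (SE 0.36, limma adjusted p = 0.341), and with WT B and WT C left out it was -0.10. The difference between the genotypes thus turned with the 2 WT libraries, in which an estimated 18.1 and 22.5 reads lay behind the values.

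The neighbours P2ry13 and P2ry14, further P2Y receptor genes inside Med12l, had the same low pair. P2ry13 had 28.5, 7.13, 5.99 and 18.0 normalized counts in WT A to WT D and 18.5 to 21.4 in KO libraries. P2ry14 had 13.95, 7.42, 7.21 and 17.5 in WT A to WT D and 12.4 to 24.1 in KO libraries. Med12l itself did not, with 1962, 2100, 2058 and 1727 in WT A to WT D. The low shares of mitochondrially encoded mRNA in WT B and WT C moved with these values, and their part in them was not tested. Over all tested genes, 35.8% had WT B and WT C both under WT A and WT D, and 35.1% had them both over.

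Csf1r encodes the receptor for colony-stimulating factor 1 and interleukin 34, on which microglia depend for survival. The gene lies on chromosome 18 (GRCm39, 61229714 to 61266535, plus strand) and overlaps Hmgxb3 on the opposite strand. It had 235, 441, 542 and 316 normalized counts in WT A to WT D, and 265, 279, 308 and 259 in KO A to KO D. WT B and WT C were again apart, here above the other libraries, while WT A was the lowest of all. The log2 fold change was -0.40 (SE 0.23, limma adjusted p = 0.344), and with WT B and WT C left out it was 0.02. Without WT A, the remaining WT libraries all lay above the KO libraries. Of its ligands, Csf1 had a log2 fold change of 0.04 (limma adjusted p = 0.909) and Il34 one of -0.03 (limma adjusted p = 0.917), and both signs turned without WT B and WT C (-0.10 and 0.06). Hmgxb3 had 1698 to 1781 normalized counts in WT and 1669 to 1749 in the quadruple KO.

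Aif1, which encodes the actin-binding protein Iba1 used to stain microglia, lies on the minus strand of chromosome 17 (GRCm39, 35387384 to 35395053). It had 7.27, 17.05, 10.4 and 13.3 normalized counts in WT A to WT D, and 9.05, 5.89, 7.66 and 7.49 in KO A to KO D. Except for WT A, the WT libraries lay above all KO libraries. The means were 12.02 ± 4.17 and 7.52 ± 1.29 (SD over 4 libraries each), and the exact two-sided permutation test gave p = 0.114. When all genes were tested without a minimum, the log2 fold change was -0.57 (SE 0.32, limma adjusted p = 0.342). An estimated 7.02 to 14.7 reads per library lay behind these values, so counting error alone is large here.

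**Figure D4:**
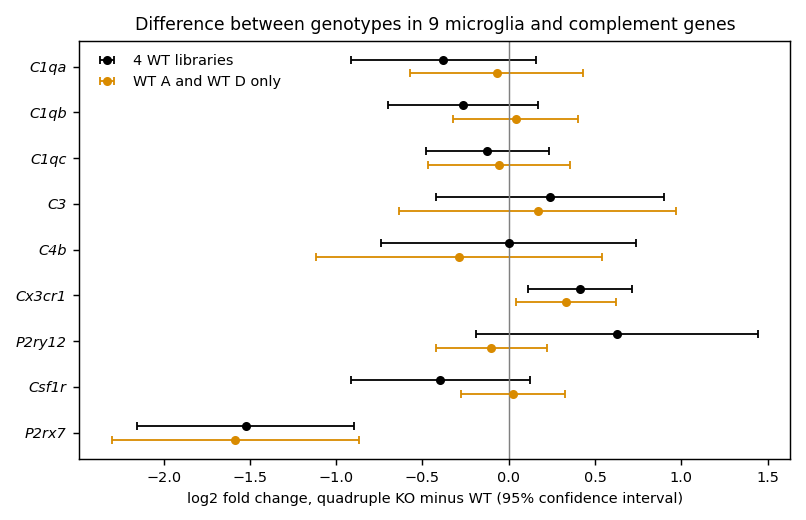
Log2 fold change, quadruple KO minus WT (x axis), of the 9 tested genes (y axis), with points for the estimate and bars for the 95% confidence interval, using all 4 WT libraries (black) or WT A and WT D only (orange). The intervals of P2rx7 and Cx3cr1 leave out 0 both times, and the estimates of C1qb, P2ry12 and Csf1r change sign.

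Levels can be compared between genes only per length, and their order depends on the transcript chosen. C1qa and C1qb had WT means of 76.4 and 74.4 normalized counts, which were divided by 1087 and 2532 bases. Aif1 was divided by 3425 bases. Whether the canonical transcripts are the ones expressed here was not tested. Per kb of the canonical transcript (GENCODE M39), the WT means were 70.3 ± 20.6 normalized counts for C1qa, 63.4 ± 22.4 for Csf1r, 30.6 ± 4.31 for C1qc, 29.4 ± 7.36 for C1qb, 28.3 ± 3.43 for Cx3cr1, 26.0 ± 14.2 for P2ry12, 23.6 ± 5.98 for C4b, 7.08 ± 1.29 for C3, 3.79 ± 0.65 for P2rx7 and 3.51 ± 1.22 for Aif1 (SD, n = 4). The mean ± SD of neighbours in this order overlapped except at the steps from Csf1r to C1qc, from C4b to C3 and from C3 to P2rx7. In the quadruple KO the levels per kb were 53.2 ± 12.1 for C1qa, 45.9 ± 3.57 for Csf1r, 37.7 ± 3.31 for Cx3cr1, 35.8 ± 3.17 for P2ry12, 27.8 ± 1.66 for C1qc, 25.1 ± 12.7 for C4b, 23.9 ± 1.86 for C1qb, 8.86 ± 3.98 for C3, 2.196 ± 0.38 for Aif1 and 1.19 ± 0.27 for P2rx7. Here the mean ± SD of neighbours overlapped between C1qa and Csf1r, Cx3cr1 and P2ry12, C1qc and C4b, and C4b and C1qb. It did not at the other steps, and C1qc and C1qb did not overlap each other. The lowest place went from Aif1 in WT, where it was within the spread of P2rx7, to P2rx7 in the quadruple KO.

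The spread between libraries also differed. For Csf1r the coefficient of variation was 35.4% in WT and 7.77% in the quadruple KO, for P2ry12 it was 54.7% and 8.85%, and for C1qb 25.0% and 7.79%. In these genes WT B and WT C set the WT spread. The reverse order was seen for the cleaved components, with 18.3% and 44.9% for C3 and 25.3% and 50.8% for C4b. These differences in spread are described without a test.

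The rest of the cascade was examined through 54 further complement genes, of which 25 were tested. None was called, and the unadjusted p was under 0.05 for Cd59a, an inhibitor of the membrane attack complex, and for Lrp1, a scavenger receptor (2 of 25, beside 16.6% of all tested genes). The median log2 fold change of the 25 was -0.02, against -0.00018 over all tested genes. In the classical and lectin pathways the 6 tested genes lay between -0.32 (C2) and 0.40 (Masp2, -0.01 without WT B and WT C), with C1ra at -0.00 and C1s1 at -0.18 for the proteases of C1, which were -0.31 and -0.46 without these libraries. Of the alternative and terminal pathways the table held only properdin (Cfp, -0.04) and C8g (-0.24, or -0.02 without WT B and WT C). The 13 tested inhibitors ranged up to 0.44 for Csmd3, a value that was -0.03 with WT B and WT C left out. In 9 of the 13 inhibitors WT B and WT C were both under WT A and WT D, beside 35.8% of all tested genes. Cd59a had 404, 269, 316 and 414 normalized counts in WT A to WT D and 395 to 507 in KO libraries, a log2 fold change of 0.40 (SE 0.15, limma adjusted p = 0.301) that was 0.15 without WT B and WT C. Of the receptors, Itgam and Itgb2, which form complement receptor 3, had log2 fold changes of -0.06 and -0.28 (limma adjusted p = 0.880 and 0.654), or -0.28 and -0.30 without WT B and WT C, and C3ar1 had no row in the table used here. Lrp1 had 9350, 12706, 12045 and 9239 in WT A to WT D and 7296 to 8424 in KO libraries, so the genotypes did not overlap (log2 fold change -0.43, SE 0.12, limma adjusted p = 0.301, and -0.23 without WT B and WT C). The study named Lrp1 too from these libraries.

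Of 30 further markers of resident microglia, 27 had a row and 25 were tested. Tmem119 had 44.8 to 74.8 normalized counts in WT and 41.7 to 60.8 in the quadruple KO, so RNA of microglia was detectable in both genotypes. None of the 25 was called, and 2 had an unadjusted p under 0.05, among them Ctss, a lysosomal protease, with a log2 fold change of -0.34, which was -0.14 without WT B and WT C. With all 8 libraries the median log2 fold change was 0.11, with 16 positive and 9 negative. The median was the value of Sall1, named after it was seen, which was -0.39 without WT B and WT C. As other signs turned without them too, such as that of Gpr34 below, no direction is given for the list. Trem2 and Tyrobp, a lipid-sensing receptor and its adaptor, had -0.49 and 0.10 (limma adjusted p = 0.313 and 0.842), or -0.28 and 0.14 without WT B and WT C. The widest values were 0.86 for Ptprc, which encodes CD45, and 0.76 for Gpr34, a receptor for lysophosphatidylserine, and both were low in WT B and WT C. Without these libraries the values were 0.06 for Ptprc and -0.14 for Gpr34. Ptprc had 15.3, 3.26, 4.72 and 12.9 normalized counts in WT A to WT D and 10.8 to 19.9 in KO libraries. WT B and WT C were both under WT A and WT D in 13 of the 25 and both over them in 5. Over all tested genes the shares were 35.8% and 35.1%. The markers were thus not of 1 pattern in these libraries.

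Of 28 markers of activated microglia, 18 had a row and 17 were tested. None was called, the median log2 fold change was -0.06, and 2 had an unadjusted p under 0.05, Cd74 and Axl. Cd74, the chaperone of MHC class II, had 24.3, 39.5, 40.9 and 38.6 normalized counts in WT A to WT D, and 30.2, 12.2, 10.6 and 9.95 in KO A to KO D. Of the KO libraries only KO A lay within the WT range (log2 fold change -1.26, SE 0.36, limma adjusted p = 0.301). Axl, a receptor for apoptotic cells named here after its values were seen, did not overlap between the genotypes (567 to 887 in WT, 473 to 526 in the quadruple KO), with a log2 fold change of -0.49 (limma adjusted p = 0.301), or -0.30 without WT B and WT C. B2m, the light chain of MHC class I, had a log2 fold change of 0.49 (limma adjusted p = 0.303). It had 207, 122, 111 and 227 in WT A to WT D, another low pair in WT B and WT C, and without them its log2 fold change was 0.05. Of the 17 activation markers, 8 had WT B and WT C both over WT A and WT D and 1 had them both under. Over all tested genes the shares were 35.1% and 35.8%.

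Of 17 further purinergic receptors, P2ry13 among them as in the list of resident markers, 13 were tested and none was called. Adora2a, an adenosine receptor, had the largest log2 fold change (-1.64, SE 0.61, limma adjusted p = 0.301) and was the only one with an unadjusted p under 0.05. It had 8.93, 42.2, 25.9 and 5.46 normalized counts in WT A to WT D and 2.47 to 7.57 in KO libraries, so that WT B and WT C carried much of the difference, and without them the log2 fold change was -0.59. The genotypes of P2ry1 did not overlap (302 to 377 in WT, 378 to 438 in the quadruple KO, log2 fold change 0.24, limma adjusted p = 0.302, and 0.10 without WT B and WT C), which was noticed after the values were seen. Of 12 ligands and neuronal partners of microglia 11 were tested and none was called. Panx1, an ATP release channel, had a log2 fold change of -0.46 (limma adjusted p = 0.377) and Tgfb1, a growth factor that microglia need, one of -0.51 (limma adjusted p = 0.301). Both rested on WT B and WT C, without which the values were 0.02 for Panx1 and -0.24 for Tgfb1. Besides Tgfb1, Cd47 (0.20) and its receptor Sirpa (0.21) had an unadjusted p under 0.05, and they are named after their values were seen. Without WT B and WT C these values were 0.07 and 0.10. Sirpa did not overlap between the genotypes, with 5017 to 5880 normalized counts in WT and 6067 to 6467 in the quadruple KO.

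**Figure D5:**
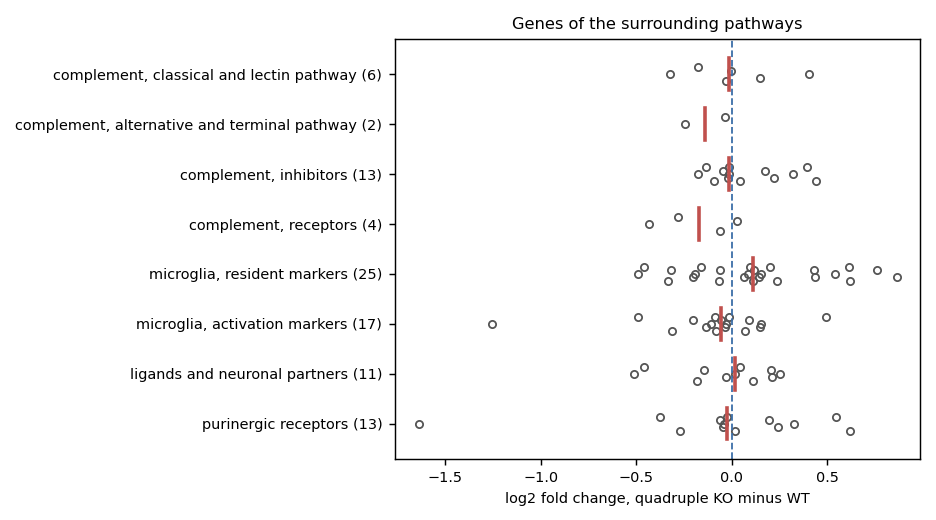
Log2 fold change, quadruple KO minus WT (x axis), of the tested genes (circles) in 8 lists around the cascade and microglia (y axis, number tested in brackets), with the median of each list (red) and of all tested genes (dashed). With all 8 libraries, WT B and WT C included, the medians lie between -0.17 for complement receptors and 0.11 for resident microglia, and no gene shown was called.

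Other cells that share these genes were examined through their markers. None of 8 markers of monocytes and neutrophils and none of 6 of lymphocytes had a row in the table used here, whose lowest mean was 8.497. Of 8 markers of perivascular macrophages, Lyve1 and Stab1 had rows. Stab1 had 130, 40.0, 77.3 and 164 normalized counts in WT A to WT D, and 28.1, 28.8, 19.96 and 65.7 in KO A to KO D (log2 fold change -1.46, SE 0.48, limma adjusted p = 0.301). KO D lay between WT B and WT C, and the other KO libraries lay below all of WT. The log2 fold change of Stab1 without WT B and WT C was -2.15 (limma adjusted p = 0.0775). Lyve1 had a log2 fold change of 0.30 (limma adjusted p = 0.427), or -0.10 without these libraries, and the sum of both markers was 298 to 600 in WT and 400 to 551 in the quadruple KO. Both genes are also expressed by endothelial cells. Of 6 endothelial markers, Vwf was called, with 265 ± 45.8 normalized counts in WT against 54.1 ± 13.6 in KO libraries (log2 fold change -2.29, SE 0.21, limma adjusted p = 0.000539), while Cdh5 had 0.34 (limma adjusted p = 0.337), or 0.12 without WT B and WT C. Their part in the values of the members was not tested.

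The pattern of each tested member over the 8 libraries was compared with that of all other tested genes by the root-mean-square difference of log2 values centred on the mean of each gene. The nearest to P2rx7 was Gm49968 (0.11 log2 units, where P2rx7 itself deviated by 0.80), a gene on chromosome 18 that was called (27.2 ± 5.60 for WT and 8.16 ± 1.08 for the quadruple KO, SD over 4 libraries each, limma adjusted p = 0.0276). Ky and Gm13237 followed at 0.25 and 0.30. The nearest to P2ry12 were Cetn4, Zfp706 and Gm44164 (0.09 each), to Csf1r Wdr18, Cbx8 and Acbd4 (0.08 each), and to C1qb Rnf168, Eif2ak3 and Ftsj3 (0.04 to 0.05). For C1qa they were Gm7895, Ptges3-ps and D830050J10Rik (0.09 to 0.11), and for C1qc Sdccag8, Wdr91 and Iba57 (0.05 to 0.07). Cx3cr1 was nearest to Tmod1, Hibch and Bclaf3 (0.06 to 0.09). C3 was nearest to Tmco4, Otulinl and Bbof1 (0.19 to 0.20), and C4b to 3425401B19Rik, Gm5176 and Nek11 (0.17 to 0.22). No member was among the 3 nearest genes of another. The closest rank was that of Cx3cr1 for C3 (313), while C3 stood at rank 8992 for Cx3cr1. By the difference itself the closest pair was C1qa and C1qb, at 0.228, against 0.335 for C3 and Cx3cr1. For C1qa the next C1q chain, C1qb, stood at rank 845.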

How the data were processed

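Total RNA of 4 WT and 4 quadruple KO retinae was analysed. The authors trimmed reads with Trim Galore 0.6.7, aligned them to GRCm39 with STAR 2.7.9a, quantified genes with Salmon 1.5.2, and deposited normalized counts from DESeq2 1.32.0. Their fold changes, p-values and means in the same table were not used. The kit was directional; whether counting used strand is not given in the sources used here. Whole reads were not recovered (50.3% to 72.4% of low values were whole steps within 0.1), so no count model was fitted, and depth is an estimate.

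Samples were grouped by their titles. log2(normalized count + 1) was compared with limma 3.58.1 in R 4.3.3 (eBayes with trend, two-sided, no covariates, genes with a mean of at least 10, Benjamini-Hochberg adjustment, call at 0.05). Exact permutation tests used scipy 1.17.1 in Python 3.11.15. P-values measure only the spread between these libraries, which may in part be technical, since retinae were pooled in a way the sources do not detail. Scripts were tested on simulated data. Positions and canonical transcripts came from GENCODE M39, and promoters from RefSeq. The members and gene lists were chosen with earlier results of these data known. Named genes were the members, their partners and selected microglia markers, and in each list the called genes or else the 2 with the largest fold change, besides those described as chosen after their values were seen. Alternatives varied the pseudocount, filter, scaling, variance model, library weights, replicate block and libraries. Marker lists of blood, glia, pigment epithelium, fibroblasts and rods were also counted. Some genes of the lists are not reported here by name.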

Additional observations from a re-analysis of the deposited data

Results flagged for a closer look

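In each genotype the highest or lowest of the 4 libraries was compared with the rest, and a value was set apart when its gap to the nearest library was too large a part of the group's range by Dixon's critical value at the 95% level. Chance sets apart about 1 in 20 groups. Of 106 groups examined in 53 genes, 8 were set apart.

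Among the members this was so only for Cx3cr1 in WT, where WT C had 87.3 normalized counts and the other WT libraries 112 to 115.

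Cd74 was set apart in both genotypes, with 24.3 in WT A against 38.6 to 40.9 in the other WT libraries, and with 30.2 in KO A against 9.95 to 12.2 in the other KO libraries. Itgam had 49.4 in KO A against 31.9 to 34.3, C1s1 had 23.7 in KO C against 6.90 to 9.56, and Masp2 had 54.98 in KO B against 43.4 to 45.0. Lyve1 had 486 in KO D against 378 to 380. Best1, a marker of the retinal pigment epithelium, had 33.5 in KO B against 13.5 to 16.0.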

How the results depend on the processing

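In all 17 to 18 alternatives run for each, P2rx7, Cx3cr1, C1qa and C1qc kept their sign. Members called rose from 0 to 1, P2rx7, in limma without a trend and with library weights, where genes called in all were 75 and 143. With WT B and WT C left out the log2 fold change was 0.040 for C1qb, -0.10 for P2ry12 and 0.024 for Csf1r, and with library weights it was 0.059 for Csf1r. That of C4b was 0.0040 with a pseudocount of 10 and 0.016 with quantile normalization. Leaving out each library in turn gave a log2 fold change from -0.30 to 0.24 for C4b and from -0.027 (without KO D) to 0.43 (without KO B) for C3. The members whose genotypes did not overlap were 2 in each such repeat except without WT A, where Aif1 and Csf1r made them 4. Genes called in all lay between 56 and 89. The causes were not tested.

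The letters A to D do not pair the libraries by any label, and deviations of libraries with the same letter correlated at -0.01, -0.11, 0.10 and 0.05. With the letter as a replicate block 51 genes and no member were called, and P2rx7 had a limma adjusted p of 0.339.

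Estimated reads per library were at most 22.3 for P2rx7 and 14.7 for Aif1, which limits the precision of both. Normalized counts gave no whole reads, so counting error could not be modelled.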

Other observations

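Further marker lists of the dissected tissue were counted beside the members. Of 8 rod genes none was called, and 3 had genotypes that did not overlap, all higher in the quadruple KO. Nr2e3 was among these 3 and Gnat1 was not. Over all tested genes 9.74% did not overlap, 1086 higher and 632 lower in the quadruple KO. Nr2e3, a regulator of rod identity, had a log2 fold change of 0.36 and Gnat1, rod transducin, one of 0.28 (limma adjusted p = 0.301 and 0.302). Without WT B and WT C these were 0.23 and 0.08. Of 11 genes of Mueller glia and astrocytes none was called, 4 had a positive and 7 a negative log2 fold change, and the median was -0.19. This median was the value of Rlbp1, named after it was seen, which was 0.01 without WT B and WT C. The values furthest from 0 were -0.83 for Pax2 and -0.48 for S100b (limma adjusted p = 0.301 for both), and the highest was 0.34 for Kcnj10, named after its value was seen (limma adjusted p = 0.301). Without WT B and WT C the log2 fold change was 0.07 for Kcnj10, -0.62 for Pax2 and -0.57 for S100b. Pax2, which marks astrocytes of the optic nerve head, had 17.1, 28.6, 28.3 and 25.9 normalized counts in WT A to WT D and 11.3 to 17.8 in KO libraries.

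Of 7 tested genes of fibroblasts, sclera and choroid none was called, and Col3a1 had a log2 fold change of -1.19 and Dcn one of 0.88 (limma adjusted p = 0.301 for both), both apart in WT B and WT C. Without these libraries the values were -0.19 and 0.31. Of 6 tested genes of the retinal pigment epithelium none was called, and their sum was 2158 to 6485 normalized counts in WT and 2426 to 3736 in the quadruple KO. Of 5 blood genes none was called, and Hbb-bs and Hba-a2 had log2 fold changes of -0.45 and -0.40 (limma adjusted p = 0.301 for both). Without WT B and WT C these were -0.20 and -0.30. The other blood genes were positive, with 0.14 for Hba-a1, 0.22 for Hbb-bt and 0.04 for Alas2, and the median of the 5 was 0.04.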
